A study of Homo sapiens with 4 samples.

Results

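The urea cycle and glutamine synthesis genes described here are CPS1, OTC, ASS1, ASL, ARG1, ARG2, NAGS, SLC25A15 and GLUL. They were chosen by name, as the rows whose identifier equals the symbol, and all 9 were found among the 44591 genes of the tables. RNA-seq was performed on 4 libraries labelled HepG2, an established human liver cancer line, with 2 libraries transfected with siNC, a control siRNA, and 2 with siRNA against LINC01186, the lncRNA called SALIS. Both groups were transfected at about 70% confluency, kept 6 h without serum and then 24 h with 10% serum. Per the study, both siSALIS libraries were made with different oligos and both siNC libraries with the same control, but the labels do not say which siSALIS oligo went into which library. The samples of a group are called biological repeats, and p-values measure the spread between these 4 libraries.

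Ammonia is detoxified in the liver by the urea cycle and by the synthesis of glutamine. In mitochondria CPS1 joins ammonia and bicarbonate to carbamoyl phosphate, which requires N-acetylglutamate made by NAGS, and OTC joins the product to ornithine to give citrulline. SLC25A15 exchanges ornithine and citrulline across the inner mitochondrial membrane. In the cytosol ASS1 joins citrulline to aspartate, ASL splits the product into arginine and fumarate, and ARG1 splits arginine into urea and ornithine. ARG2 is the mitochondrial arginase, which is found mainly outside the liver, and GLUL, glutamine synthetase, joins ammonia to glutamate.

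The label and the knockdown were checked first. Of 8 hepatocyte-type markers, including albumin (ALB), 7 and 6 had 3 counts or fewer in siNC replicate 1 and siSALIS replicate 1, and 1 had 3 counts or fewer in each replicate 2 library. ALB was at 0 in both replicate 1 libraries and had 15 and 14 counts in siNC and siSALIS replicates 2. The summed level of the 8 markers was 4.90 and 16.9 CPM in the siNC libraries and 6.23 and 15.2 CPM in the siSALIS libraries, where CPM is the count per 1000000 reads after TMM scaling. Most of it was HNF4A, a nuclear receptor of liver and gut, with 79 to 188 counts. Without HNF4A the sums were 0.179 and 6.94 CPM in siNC and 0.420 and 4.61 CPM in siSALIS. The liver label is therefore not borne out by these markers, the libraries are called here by their labels, and replicate 1 and replicate 2 differed in these markers in both groups.

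**Figure D1:**
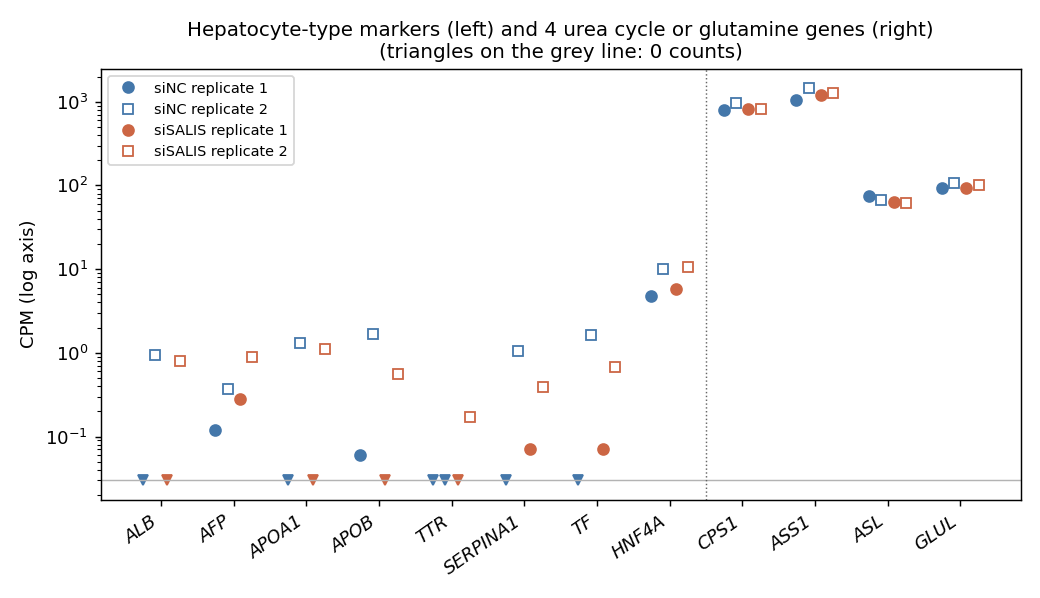
CPM on a log axis of 8 hepatocyte-type markers (left of the dotted line) and of CPS1, ASS1, ASL and GLUL (right), with a point for each library and triangles for 0 counts. The markers other than HNF4A lie under 2 CPM, while CPS1 and ASS1 lie between 801 and 1454 CPM.

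Markers of other cells were also measured. The 4 fibroblast markers, with 333 to 790 counts of the collagen gene COL1A1, summed to 51.6 and 85.5 CPM in siNC and to 49.5 and 83.7 CPM in siSALIS. The 3 endothelial markers summed to 1.79 to 3.22 CPM. The 3 blood markers summed to 50.1 to 55.0 CPM and nearly all of this was CD68, with PTPRC and CD3E at 0 to 2 counts. The part of these cells or lines in the levels below was not tested. SALIS itself had 15 and 14 counts in siNC and 12 and 14 in siSALIS, a log2 fold change of -0.12 ± 0.53 (SE, edgeR, unadjusted p = 0.831). A fall of SALIS was not detectable at this depth and every direction below is between libraries by their labels. The study reports knockdown of SALIS by siRNA in HepG2 cells, measured by qPCR. Total counts were 14968958 to 17297245, and 3 counts, taken as the limit of detection, corresponded to 0.169 to 0.210 CPM. This limit covers counting error only.

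The start regions of 4 genes are printed because OTC and ARG1, which had at most 1 count per library, and ASL and ARG2, which were measured well above the limit, differ in them. The stretches are 100 bases each (GRCh38.p14, plus strand in all 4), with CpG dinucleotides in capitals. Each ends before the RefSeq transcription start, or before the most upstream GENCODE 29 start where that lay within the 250 bases before it. The positions are chrX:38352445-38352544 for OTC, chr6:131573044-131573143 for ARG1, chr7:66075698-66075797 for ASL and chr14:67619698-67619797 for ARG2.
OTC: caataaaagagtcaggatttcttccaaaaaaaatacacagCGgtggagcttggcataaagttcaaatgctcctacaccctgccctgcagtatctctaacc
ARG1: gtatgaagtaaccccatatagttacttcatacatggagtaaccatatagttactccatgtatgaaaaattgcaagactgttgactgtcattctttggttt
ASL: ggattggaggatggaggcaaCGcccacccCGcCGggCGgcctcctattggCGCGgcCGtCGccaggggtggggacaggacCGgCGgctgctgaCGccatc
ARG2: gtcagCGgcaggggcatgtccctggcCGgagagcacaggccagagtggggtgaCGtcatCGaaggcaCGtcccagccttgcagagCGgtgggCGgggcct

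Over the 250 bases before the RefSeq start, OTC had a GC content of 40.4% with 2 CpG dinucleotides and ARG1 37.6% with 1. ASL had 74% with 22 and ARG2 72.4% with 27, against medians of 58% and 11 over 35116 RefSeq promoters. The other genes did not all follow the level of their transcript. ASS1 had 68.4% and 78.8% at its 2 starts, GLUL 74.8% and 71.2%, SLC25A15 79.6% and NAGS 65.6%, but CPS1, the second most abundant gene of the set, had 33.6%, 48.4% and 40% at its 3 starts, with 1 to 3 CpG dinucleotides.

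Letters of a few motifs were searched on both strands of the same 250 bases. TATAAA was found in OTC and ARG1 and in no other gene of the set, and in 10.7% of all promoters. CCAAT was found in ASL, ARG2, the first start of GLUL and the third start of CPS1, and in 32% of all promoters. TTCNNNGAA was found in the second start of CPS1 and in 6.57% of all promoters. TTGCGCAA and CAAAGTCCA were found in none of these genes and in 0.131% and 0.325% of all promoters. A match describes the letters of the window and is not a binding site.

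At baseline, in siNC, the 2 genes at or under the limit of 3 counts were OTC, of citrulline synthesis, and ARG1, the cytosolic arginase. Arginine hydrolysis was not without a transcript, since the mitochondrial arginase ARG2 had 207 and 329 counts. ASS1 and CPS1 were among the most abundant transcripts of all genes. Levels of different genes are compared as CPM per kb of the gene length in the tables. In bulk RNA fewer cells that hold a transcript and less of it per cell cannot be told apart. Gene positions are those of the tables, whose build is hg19 per the submitters' processing notes.

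CPS1 (chr2:211342406-211543831) had 13416 and 15720 counts in siNC replicates 1 and 2, compared with 11729 and 14375 in siSALIS. Its level in siNC was 144 ± 19.8 CPM per kb (SD, n = 2), at percentiles 99.0 and 99.3 of all genes in replicates 1 and 2. The intronic transcript CPS1-IT1 had 3 to 6 counts. CPS1 was thus second in the set, and its libraries in both groups overlapped.

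NAGS (chr17:42082032-42086436), which makes the activator of CPS1, had 19 and 44 counts in siNC and 26 and 26 in siSALIS. Its level in siNC was 0.931 ± 0.543 CPM per kb (SD, n = 2), and siNC held both the lowest and the highest library. NAGS was the lowest of the detected genes, at percentiles 63.3 and 69.1 of all genes.

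OTC (chrX:38211736-38280703) had 0 counts in each of the 4 libraries. A count of 0 allows a level of up to 0.127 CPM per kb in the library where this limit was highest. The transcript was therefore not detectable at this depth in either group.

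SLC25A15 (chr13:41363547-41386596), the ornithine carrier, had 546 and 365 counts in siNC and 466 and 401 in siSALIS. Its level was 8.11 and 5.62 CPM per kb in siNC and 8.11 and 5.61 CPM per kb in siSALIS. The libraries of each replicate number lay together, and replicate 1 was above replicate 2 in both groups. SLC25A2, the second ornithine carrier, had 0 to 3 counts per library, and the ratio of SLC25A15 to SLC25A2 was 163 in siNC (95% counting interval 44.9 to 1344, from 911 and 2 counts).

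ASS1 (chr9:133320094-133376661) had 17519 and 23465 counts in siNC and 17247 and 22342 in siSALIS. Its level in siNC was 676 ± 156 CPM per kb (SD, n = 2), at percentiles 99.8 and 99.9. It was the most abundant gene of the set, and its lower siNC library, at 566 CPM per kb, lay above both CPS1 libraries. The 13 ASS1 pseudogenes counted here summed to 18 to 49 counts per library, at most 0.284% of the ASS1 count.

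ASL (chr7:65540776-65558330) had 1263 and 1076 counts in siNC and 904 and 1107 in siSALIS. Its level in siNC was 33.5 ± 2.92 CPM per kb (SD, n = 2). It stood below ASS1 and CPS1 and above the other members in both siNC libraries. The pseudogene ASLP1 had 28 to 41 counts, at most 4.54% of the ASL count.

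ARG1 (chr6:131894344-131905472), the liver arginase, had 1 count in each siNC library, 0 in siSALIS replicate 1 and 1 in siSALIS replicate 2. These values are at or under the limit of 3 counts. ARG1 overlaps MED23 on the opposite strand, which had 266 to 371 counts, and the strand setting of the counting is not given in the sources used here.

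ARG2 (chr14:68086579-68118437) had 207 and 329 counts in siNC and 151 and 273 in siSALIS. Its level in siNC was 8.26 ± 2.86 CPM per kb (SD, n = 2). It was the arginase that was detected: the ratio of ARG2 to ARG1 was 202 in siNC (95% counting interval 55.8 to 1675, from 536 and 2 counts) and 320 in siSALIS (57.2 to 12676, from 424 and 1 counts). VTI1B, on the opposite strand of ARG2, had 640 to 799 counts, so some reads could belong to either gene.

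GLUL (chr1:182347228-182361341) had 1562 and 1747 counts in siNC and 1326 and 1775 in siSALIS. Its level in siNC was 11.8 ± 1.24 CPM per kb (SD, n = 2), below ASL and above ARG2 in both siNC libraries. Its 5 pseudogenes summed to 7 to 11 counts, at most 0.830% of the GLUL count.

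**Figure D2:**
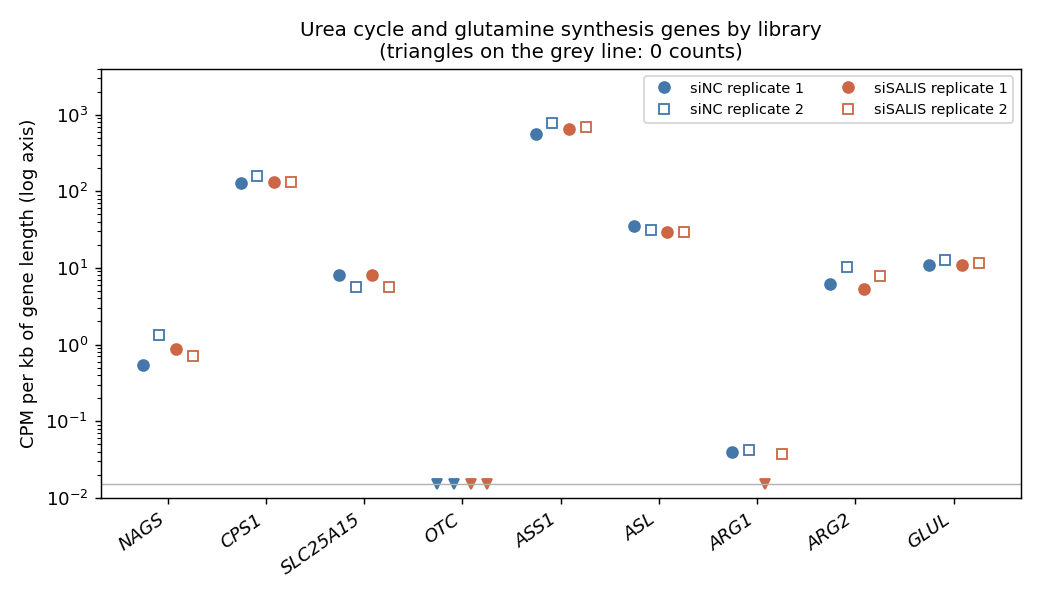
CPM per kb of gene length on a log axis for the 9 genes, with a point for each library, circles for replicate 1, squares for replicate 2 and triangles for 0 counts. The order in siNC runs from ASS1 at 676 ± 156 CPM per kb (SD, n = 2) through CPS1 and ASL to NAGS at 0.931 ± 0.543, with ARG1 and OTC at or under 1 count.

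The order of the means in siNC was ASS1, CPS1, ASL, GLUL, ARG2, SLC25A15, NAGS, ARG1 and OTC. From ASS1 to ARG2, and from SLC25A15 to NAGS, neighbours in this order did not overlap between the 2 siNC libraries. ARG2 and SLC25A15 did not differ beyond their spread, since ARG2 had 6.24 and 10.3 CPM per kb and SLC25A15 8.11 and 5.62, and the order of the pair turned between replicates. ARG1 and OTC could not be ordered. On the authors' TPM all 9 places were the same. Both scales are the count over gene length times a constant within a library. The TPM order is therefore no separate check.

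Enzymes of a like step were compared as a ratio of CPM per kb. CAD, whose carbamoyl phosphate enters pyrimidine synthesis, stood at 0.378 ± 0.0873 of CPS1 (SD, n = 2) in siNC and at 0.377 ± 0.0244 in siSALIS. The groups overlapped.

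Comparing siSALIS with siNC describes the difference between libraries by their labels, since a fall of SALIS was not detectable in them. None of the 7 members tested was upregulated or downregulated: 0 of 7 had an adjusted p under 0.05, where 0 of all 23942 genes tested did (0%), by the quasi-likelihood test of edgeR after Benjamini-Hochberg adjustment. At an unadjusted p under 0.05 the count was 0 of 7 by edgeR, where 1.21% of all genes passed. It was 0 of 7 by DESeq2's Wald test, whose share of all genes is not given here. At the limits of the study, a log2 fold change beyond 1 with an unadjusted p under 0.05, the count was also 0 of 7, against 0.756% of all genes. These fits leave out the replicate number. With it as a block in edgeR, 0 of 7 had an adjusted p under 0.05, where 278 of all genes tested did. ARG2 then had an unadjusted p of 0.0494 and an adjusted p of 0.596 (edgeR), as the 1 member of 7 under an unadjusted 0.05. The share of all genes under 0.05 in that fit is not given here, so this count has no background. OTC and ARG1 had fewer than 5 counts over the 4 libraries and were not tested.

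Of all 23942 genes tested, 11784 had a log2 fold change below 0. The values of the 7 members were all below 0, with a median of -0.12 against 0.00 over all genes tested. They ranged from -0.33 for ARG2 to -0.003 for SLC25A15. None of them exceeded its error by enough to pass the test, and 5 of the 7 turned positive when siNC replicate 2 was left out.

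ASL was at 75.4 and 66.7 CPM in siNC and at 63.3 and 62.3 CPM in siSALIS. Both siSALIS libraries lay below both siNC libraries, which held for 12.4% of all genes tested, and no member was higher without overlap, which held for 13.6%. The log2 fold change of ASL was -0.18 ± 0.18 (SE, edgeR, unadjusted p = 0.352, adjusted p = 1.00).

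ARG2 was at 12.4 and 20.4 CPM in siNC and at 10.6 and 15.4 CPM in siSALIS. The groups overlapped, and replicate 2 was above replicate 1 in each. The log2 fold change came to -0.33 ± 0.31 (SE, edgeR, unadjusted p = 0.307, adjusted p = 1.00). Leaving out siNC replicate 2 gave 0.08.

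CPS1 was at 801 and 974 CPM in siNC and at 821 and 809 CPM in siSALIS. Both siSALIS libraries lay between the siNC libraries. The log2 fold change came to -0.12 ± 0.19 (SE, edgeR, unadjusted p = 0.535). ASS1 gave the same picture, at 1046 and 1454 CPM in siNC and 1207 and 1257 CPM in siSALIS, with a log2 fold change of -0.02 ± 0.21 (SE, edgeR, unadjusted p = 0.925).

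GLUL was at 93.3 and 108 CPM in siNC and at 92.8 and 99.9 CPM in siSALIS. These ranges overlapped, and the log2 fold change was -0.06 ± 0.18 (SE, edgeR, unadjusted p = 0.736). NAGS was at 1.13 and 2.73 CPM in siNC and at 1.82 and 1.46 CPM in siSALIS, and its log2 fold change of -0.23 had the largest SE of the 7, 0.51 (edgeR, unadjusted p = 0.659). SLC25A15 was at 32.6 and 22.6 CPM in both groups, with a log2 fold change of -0.003 ± 0.26 (SE, edgeR, unadjusted p = 0.991).

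**Figure D3:**
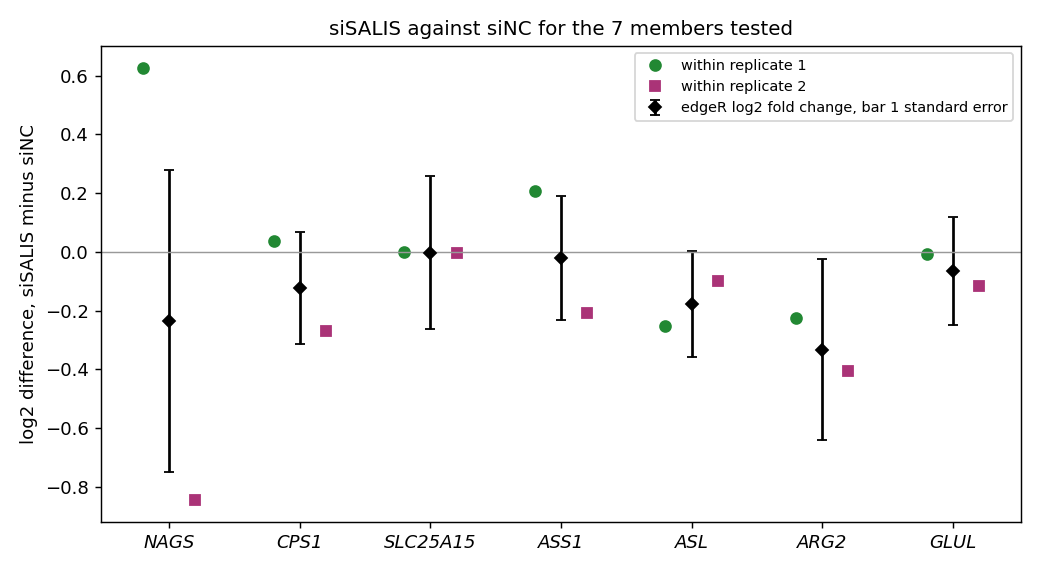
Log2 differences of siSALIS minus siNC for the 7 members tested, with diamonds for the edgeR log2 fold change and bars of 1 standard error, circles for replicate 1 and squares for replicate 2. ARG2 and ASL lie below 0 in both replicates, and NAGS lies at 0.63 in replicate 1 and at -0.84 in replicate 2.

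Since the siSALIS oligos differed, the difference of siSALIS and siNC libraries was also taken within each replicate number, as log2 CPM, with no test. ASL differed by -0.25 in replicate 1 and -0.10 in replicate 2, and ARG2 by -0.22 and -0.40. GLUL differed by -0.01 and -0.12. These 3 of 7 members were lower in both replicates, which held for 26.2% of all genes tested, and 0 of 7 were higher in both, which held for 27.2%.

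The other 4 members did not share a sign between replicates. CPS1 differed by 0.04 in replicate 1 and -0.27 in replicate 2, and ASS1 by 0.21 and -0.21. NAGS, with the fewest counts of the 7, differed by 0.63 and -0.84. SLC25A15 differed by 0.001 and -0.003, the smallest values of the set.

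The scale changes these values. MIR6087, a microRNA row of 49 nt, took 1.16% and 1.91% of the authors' TPM in siNC and 13.8% and 8.69% in siSALIS, but 0.0253% to 0.356% of the counts. On TPM the median gene of 15203 differed by -0.25 in replicate 1 and -0.09 in replicate 2, against 0.00 and -0.01 on CPM. On TPM 6 members were lower in replicate 1, against 3 on CPM, and CPS1, ASS1 and SLC25A15 turned to -0.22, -0.05 and -0.25 there. CPS1 and ASS1 lay above the median shift of -0.25, and SLC25A15 lay at it.

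Between the replicate numbers, the siNC libraries differed by a median of 0.47 in size over the 7 members on the log2 CPM scale and the siSALIS libraries by 0.11, against 0.35 and 0.38 over all genes tested. Between the groups the median size was 0.21 within replicate 1 and 0.21 within replicate 2, against 0.22 and 0.26 over all genes tested. Replicate 2 minus replicate 1 on the log2 CPM scale was 0.72 in siNC and 0.53 in siSALIS for ARG2, and -0.53 in both groups for SLC25A15. ASS1 differed by 0.47 in siNC and 0.06 in siSALIS, and CPS1 by 0.28 and -0.02. ARG2, ASS1 and GLUL were higher in replicate 2 of both groups, and SLC25A15 and ASL were lower. The sum of the hepatocyte-type markers was also higher in replicate 2 of both groups, and so was the sum of the fibroblast markers. The latter was at 51.6 and 85.5 CPM in siNC replicates 1 and 2 and at 49.5 and 83.7 CPM in siSALIS. The part of these markers' cells in the differences was not tested. What libraries of the same replicate number share is not given in the labels.

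**Figure D4:**
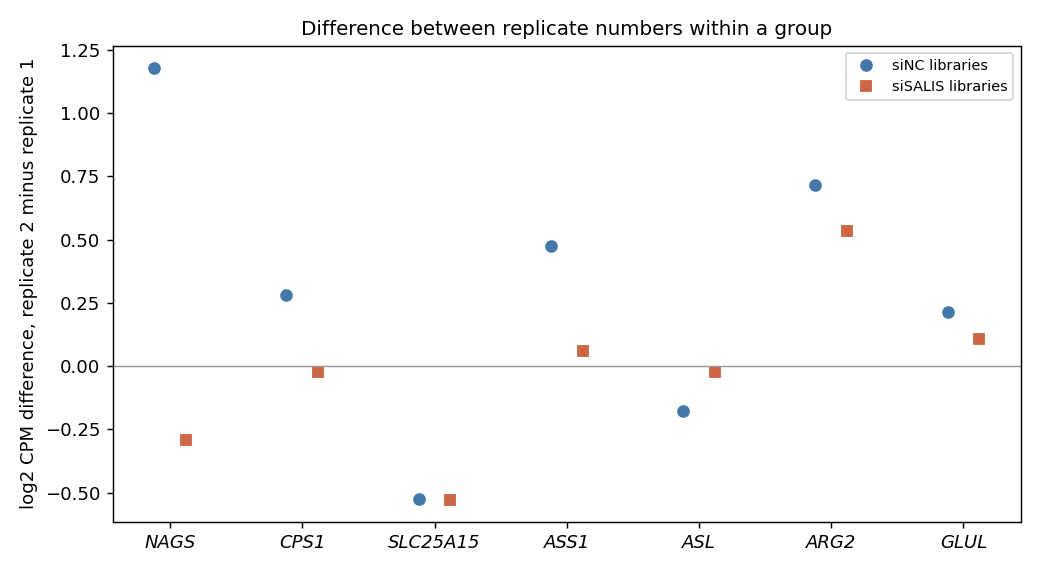
Log2 CPM difference of replicate 2 minus replicate 1 for the 7 members tested, with circles for the siNC and squares for the siSALIS libraries. SLC25A15 lies at -0.53 in both groups and ARG2 at 0.72 and 0.53, while NAGS lies at 1.18 in siNC and -0.29 in siSALIS.

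The pattern of ASS1 over the 4 libraries was compared with 10179 other genes of at least 10 CPM, by the mean absolute difference of centred log2 CPM. RPP25L was nearest at 0.00231, followed by DPYD at 0.00814 and AGO4 at 0.0130. In total 75 of the 10179 genes lay within 0.05, so likeness over 4 libraries does not single out the genes named.

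Among 60 related genes, 57 were tested, and 0 were upregulated or downregulated at an adjusted p under 0.05, at the limits of the study or at an unadjusted p under 0.05 in edgeR. DESeq2's Wald test gave 0 at an unadjusted p under 0.05, and its share of all genes is not given here. At the limits of the study it called 15 of all genes higher and 12 lower, against 111 and 70 by edgeR. The median log2 fold change of the 57 related genes was 0.02. Of them 2 were lower and 9 higher without overlap of the groups, and 18 were lower and 17 higher in both replicates. The shares of all genes tested for the same 4 counts are 12.4%, 13.6%, 26.2% and 27.2%. Log2 fold changes were above 0 for 30 related genes and below 0 for 27, against 12158 and 11784 of all 23942 genes tested. CA5A, the liver mitochondrial carbonic anhydrase, AQP9, a glycerol and urea channel, and RHBG, an ammonium transporter, were not tested because they had 0 to 2 counts per library.

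Of the 9 glutaminases and glutamate enzymes, GOT2, the mitochondrial aspartate aminotransferase, was the most abundant at 72.7 ± 5.09 CPM per kb in siNC (SD, n = 2), and 4 of the group had log2 fold changes above 0 and 5 below. GLUD1, which releases ammonia from glutamate, was at 190 and 181 CPM in siNC and at 188 and 91.5 CPM in siSALIS. Only siSALIS replicate 2 was low, and the replicate differences were -0.02 and -0.98. The log2 fold change came to -0.41 ± 0.30 (SE, edgeR, unadjusted p = 0.209). With the replicate number as a block the log2 fold change was -0.49 (edgeR, adjusted p = 0.00205), from 2 pairs. Leaving out siSALIS replicate 1 gave -1.02 (edgeR, adjusted p = 0.835), which passed the limits of the study, and leaving out siSALIS replicate 2 gave 0.01. GLUD2, a near-identical copy, had 1 to 2 counts. GLS2, the liver-type glutaminase, had 22 to 60 counts and differed by -0.93 in replicate 1 and 0.24 in replicate 2.

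Of the 9 enzymes that use glutamine for synthesis, 3 had log2 fold changes above 0 and 6 below, with a median of -0.03. GMPS, of guanine nucleotide synthesis, was at 72.6 ± 5.74 CPM per kb and CAD at 53.5 ± 5.07 in siNC (SD, n = 2). PPAT, the first enzyme of purine synthesis, had the smallest p of the group, with a log2 fold change of 0.21 and a standard error of 0.20 (edgeR, unadjusted p = 0.320).

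Of the 14 enzymes and regulators that handle ornithine, proline and polyamines, 9 had log2 fold changes above 0 and 5 below, with a median of 0.05. OAZ1, which inhibits ornithine decarboxylase, was at 438 ± 18.8 CPM per kb and SRM, spermidine synthase, at 185 ± 93.3 in siNC (SD, n = 2). SRM was at 251 and 119 CPM per kb in siNC replicates 1 and 2 and at 211 and 141 in siSALIS, so it followed the replicate number. OAT, the ornithine aminotransferase, was at 20.3 and 19.9 CPM in siNC and at 24.6 and 22.8 CPM in siSALIS, without overlap. The log2 fold change came to 0.24 ± 0.20 (SE, edgeR, unadjusted p = 0.271).

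Of the 6 genes that use arginine or its products, GAMT, the second enzyme of creatine synthesis, was at 28.4 ± 3.38 CPM per kb and AGMAT at 13.3 ± 3.65 in siNC (SD, n = 2). GATM, the first enzyme of creatine synthesis, was at 1 to 3 counts, so the abundant GAMT stood beside a first step at the limit of detection. The groups of GATM did not overlap, by 1 and 1 counts against 2 and 3. NOS2, inducible nitric oxide synthase, had 0 counts in both siNC libraries and 2 and 3 in siSALIS (edgeR, unadjusted p = 0.0620), all at or under the limit of 3 counts. The group median of 1.04 rests on such low counts.

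Of the 7 mitochondrial carriers and carbonic anhydrases, 6 were tested, with 2 log2 fold changes above 0 and 4 below. SLC25A29, a carrier of basic amino acids, was at 34.7 and 36.9 CPM per kb in siNC and at 25.6 and 32.9 in siSALIS, without overlap. The log2 fold change came to -0.29 ± 0.20 (SE, edgeR, unadjusted p = 0.174). SLC25A22, a glutamate carrier, was at 30.4 ± 8.91 CPM per kb in siNC (SD, n = 2).

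Of the 15 plasma membrane transporters, 13 were tested, with 7 log2 fold changes above 0 and 6 below. SLC7A5 and SLC3A2, which together form a carrier that exchanges glutamine for large neutral amino acids, were at 247 ± 4.10 and 124 ± 9.10 CPM per kb in siNC (SD, n = 2). SLC7A5 had a log2 fold change of -0.11 with a standard error of 0.20 and SLC3A2 of 0.17 with 0.22. SLC38A4, a liver amino acid transporter, had 0 and 2 counts in siNC and 2 and 7 in siSALIS (edgeR, unadjusted p = 0.173).

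**Figure D5:**
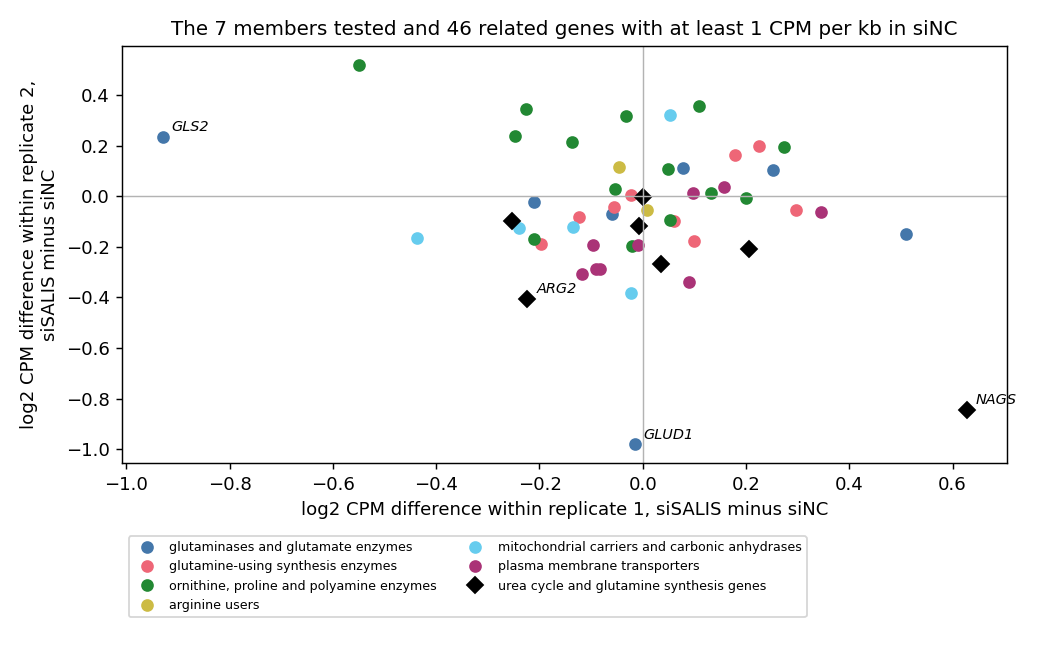
Log2 CPM differences of siSALIS minus siNC within replicate 1 (x axis) and replicate 2 (y axis) for the 7 members tested (diamonds) and 46 related genes of at least 1 CPM per kb in siNC (circles, coloured by group). GLUD1 lies at -0.02 and -0.98, NAGS at 0.63 and -0.84 and GLS2 at -0.93 and 0.24.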

How the data were processed

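Groups and replicate numbers were taken from the labels. For each library the authors deposited raw counts of reads per gene and TPM values, and the latter equal the counts over gene length scaled to a fixed total. Per the submitters' processing notes hg19, HISAT2, HISAT, TopHat2 and Bowtie2 were used, with no versions or roles. The counter, the annotation and its strand setting are not given in the sources used here. RNA was selected with oligo-dT and sequenced as paired ends.

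Genes with at least 5 counts over the 4 libraries were normalized by TMM and compared with edgeR 4.0.16 (quasi-likelihood test, no block, R 4.3.3), with Benjamini-Hochberg adjustment over all 23942 genes tested. CPM was computed on TMM-scaled library sizes, with a prior count of 2 for log2 CPM. Ratios of counts of 3 or fewer carry an exact 95% interval. Alternatives were DESeq2 1.42.0 (size factors, Wald test), edgeR's filterByExpr, at least 1 count in any library, robust estimation, the replicate number as a block, a prior count of 0.5, each library left out, and TPM, which for differences was chosen after seeing the data. Procedures were tested on simulated data that held no difference between replicate numbers, so that test cannot show how the fits handle such a difference. Chi-square per degree of freedom between the libraries of a group was 26.1 in siNC and 30.5 in siSALIS, above sampling noise.

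The members and lists were chosen with earlier results of these data known. Named are all members, the related genes in the ratios, in each related group the 2 most abundant in siNC and the smallest p, the 3 genes nearest to ASS1, and MIR6087. A few items covered by this rule are not reported here. COL1A1, CD68, PTPRC and CD3E are markers, and CA5A, AQP9, RHBG, GATM, GLUD2, MED23, VTI1B and ASLP1 were named after their values were seen or as overlapping rows or copies. Pseudogenes on the Y chromosome were left out. Sequences were read with Python 3.11.15 from RefSeq promoters, matched for all 9 members, and from GENCODE 29 transcripts.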

Additional observations from a re-analysis of the deposited data

How the results depend on the processing

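In every refit, 0 of the members had an adjusted p under 0.05 or passed the limits of the study. Directions of the members were not stable. With each library left out in turn, the log2 fold change ranged from -0.26 to 0.029 for CPS1, -0.24 to 0.24 for ASS1 and -0.65 to 0.078 for ARG2. It ranged from -0.73 to 0.53 for NAGS, -0.29 to 0.29 for SLC25A15 and -0.17 to 0.052 for GLUL. GLUD1, a related gene and not a member, ranged from -1.02 to 0.014. For CPS1, ASS1, ARG2, NAGS and GLUL the positive end came without siNC replicate 2. SLC25A15 gave 0.000255 with filterByExpr. ASL kept its direction in all fits.

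Over all genes, 111 were higher and 70 lower at the limits of the study, and these became 15 and 12 with DESeq2's Wald test and 32 and 14 with filterByExpr. Leaving out a library gave 81 to 282 higher and 93 to 201 lower. At an adjusted p under 0.05 the count of 0 became 1 with DESeq2's Wald test, 5 with at least 1 count in any library, and 0 to 6 when a library was left out. Among related genes the count at the limits, lower, was 0 to 1 with a library left out. The causes were not tested.

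With the replicate block 278 genes had an adjusted p under 0.05, of which 0 were members and 1 was a related gene, GLUD1, with a log2 fold change of -0.49 (edgeR, adjusted p = 0.00205). ARG2 had an unadjusted p of 0.0494 and an adjusted p of 0.596 (edgeR) in that fit. Deviations of same-numbered libraries correlated at 0.619 over 15203 genes, but the labels do not say what a number shares and there are 2 pairs.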
